A study of Mus musculus with 4 samples.

Results

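The cells described here are a small set of myeloid cells of the mouse ventral prostate that carried RNA of Retnla, Ccl6 and Fn1 but next to none of the complement gene C1q. They were chosen by a gate on raw counts of unique molecular identifiers (UMIs, 1 per captured RNA molecule). A member cell had at least 500 UMIs and at most 20% mitochondrial counts. It had at least 3 UMIs of Retnla, Ccl6 and Fn1 together and at least 3 of Lyz2, Lyz1 and Cd74 together. It had at most 1 UMI of C1qa, C1qb and C1qc together, at most 2 of Spp1 and Gpnmb together, and less than 10% of its UMIs from Sbp and Spink1, secreted products of the luminal epithelium. The gate held 80 of the 8091 cells that passed the UMI and mitochondrial limits, of 11245 deposited.

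Single-cell RNA sequencing was made of 4 libraries, each from the pooled pair of ventral lobes of 1 animal, all of wt genotype and strain C57BL6j, with tissue taken 2 weeks after pellets were put in. The te2 group and the sham group had 2 libraries each. The labels call the treatment te2, do not spell the code out, and place it under an imbalance of steroid hormones. They give neither the animals' age nor the content of the sham procedure. Tissue was dissociated with a cold-active protease, and 7000 cells a library were loaded on a droplet platform that reads the 3' end of transcripts.

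Fibronectin (Fn1), the chemokine Ccl6 and the secreted resistin-like molecule Retnla are made together by some mouse mononuclear phagocytes, and Retnla is a textbook gene of the response to interleukin 4, which acts through the factor STAT6. In the serous cavities of mice, small macrophages derived from Ccr2-bearing monocytes are known for Retnla, Fn1, MHC class II and the adhesion receptor Cd226, and large resident macrophages for the factor Gata6. Resident macrophages of many tissues carry C1q, and conventional dendritic cells carry Flt3 and Zbtb46.

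Promoter windows are shown for genes on both sides of the gate, because the members are defined by the presence of Retnla and Ccl6 with Lyz1, the lysozyme gene among the markers, and by the near absence of C1q. Each runs from 250 bases before to 50 bases after the annotated start, 5′ to 3′ on the gene's strand, from RefSeq on build GRCm38.p6, which is not the GRCm39 build named for these files. Capitals mark letters that match a core of the myeloid factor PU.1 (GAGGAA), a C/EBP pattern (TTGCNNAA) or a STAT6 pattern (TTC and GAA with 4 free bases between), searched on both strands. Windows for Fn1 and C1qa are not shown.
Retnla, chr16:48842359-48842658, plus strand: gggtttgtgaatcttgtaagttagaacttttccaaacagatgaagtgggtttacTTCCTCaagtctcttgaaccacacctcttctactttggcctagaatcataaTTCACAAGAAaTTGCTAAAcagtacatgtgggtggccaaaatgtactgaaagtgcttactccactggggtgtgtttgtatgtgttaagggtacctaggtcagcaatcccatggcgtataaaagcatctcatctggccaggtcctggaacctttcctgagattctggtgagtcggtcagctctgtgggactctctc
Ccl6, chr11:83593038-83593337, minus strand: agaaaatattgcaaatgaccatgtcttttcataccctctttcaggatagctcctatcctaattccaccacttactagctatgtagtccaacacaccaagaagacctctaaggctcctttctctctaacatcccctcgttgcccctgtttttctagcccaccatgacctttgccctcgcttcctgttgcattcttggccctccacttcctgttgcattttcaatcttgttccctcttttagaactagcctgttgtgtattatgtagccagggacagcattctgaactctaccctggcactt
Lyz1, chr10:117292819-117293118, minus strand: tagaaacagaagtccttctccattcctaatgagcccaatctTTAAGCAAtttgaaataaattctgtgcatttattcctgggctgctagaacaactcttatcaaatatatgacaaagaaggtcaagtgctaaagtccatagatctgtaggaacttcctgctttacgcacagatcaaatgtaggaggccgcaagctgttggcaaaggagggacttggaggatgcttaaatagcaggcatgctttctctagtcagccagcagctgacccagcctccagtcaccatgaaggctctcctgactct
C1qb, chr4:136886151-136886450, minus strand: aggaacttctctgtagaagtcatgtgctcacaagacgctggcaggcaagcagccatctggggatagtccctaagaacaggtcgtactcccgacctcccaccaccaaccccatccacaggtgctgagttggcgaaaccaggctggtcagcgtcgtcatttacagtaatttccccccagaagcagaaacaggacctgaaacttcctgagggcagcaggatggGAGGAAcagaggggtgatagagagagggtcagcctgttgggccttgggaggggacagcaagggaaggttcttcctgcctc
In the Retnla window the PU.1 core stood 196 bases before the start on the opposite strand, the STAT6 pattern 145 and the C/EBP pattern 134 bases before it, both of these on the gene's strand and next to each other without overlap. The Lyz1 window held a C/EBP match 209 bases before the start and the C1qb window a PU.1 core 30 bases before it, while the Ccl6 window held none of the 3 patterns. Of 32851 promoters of the same length, 28.3% held the PU.1 core, 10.8% the C/EBP pattern and 6.95% the STAT6 pattern, so a match describes letters and not a bound site.

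Members came from all 4 libraries. There were 20 and 11 in the te2 libraries and 41 and 8 in the sham libraries, so about as many came from sham 1 as from the other three together. Median depth per member was 3992 and 3700 UMIs in te2 and 1595 and 2759 UMIs in sham, and their mitochondrial share was 1.99% to 2.56% in the 4 libraries. Summed over members, the libraries held 72574 and 44531 UMIs in te2 and 72525 and 18558 UMIs in sham. All tables together held 12259610 and 13134017 UMIs in te2 and 3999690 and 5513275 UMIs in sham, so the te2 libraries were deeper throughout. In all, 15 cell barcodes occurred in 2 libraries, 1 of them a member's.

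Within the gate most members carried the whole set. The 3 genes were found together in 67 members, 2 of them in 6 and 1 in 7. The summed UMIs of Retnla, Ccl6 and Fn1 were 3 at the lowest, 55.5 at the median and 321 at the highest, with 3 members at the limit of 3, 10 under 10, and 2 cells just outside with 2. On the C1q side, 68 members had 0 UMIs and 12 had 1, and 8 cells stayed outside with 2. No member had a UMI of Spp1 or Gpnmb, and none had 3 or more UMIs over epithelial, stromal, T cell and endothelial genes. A doublet caller marked 1 member among 97 marked cells (1.20% of the kept cells).

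Summed over the members of a library, Retnla stood at 17403 and 15225 CPM (counts per 1000000 UMIs) in te2 and 26281 and 18105 CPM in sham. Ccl6 stood at 5319 and 4895 CPM in te2 members and 6632 and 8837 CPM in sham members, with the 2 groups apart. Fn1 stood at 5525 and 3009 CPM in te2 members and 3861 and 3341 CPM in sham members, with the groups overlapping. These genes chose the cells, so their levels are a description. A Retnla UMI was seen in 91.2% of members, a Ccl6 UMI in 98.8% and an Fn1 UMI in 85.0%, at a median depth of 2248 UMIs. In luminal cells (3226 cells with at least 10% Sbp and Spink1 UMIs, median depth 3095.5 UMIs) the same shares were 4.71%, 1.58% and 2.45%. After every cell was thinned to 500 UMIs, Retnla was seen in 90.0% of members and 2.51% of luminal cells. Retnla outside the myeloid sets was highest in sham 1, where luminal cells held 183 CPM of Retnla, against 1.82 to 14.1 CPM in the luminal cells of the other 3 libraries.

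The other markers were found in every library. Crip1, a small zinc-binding LIM protein, had 8984 and 10622 CPM in te2 members and 13375 and 14711 CPM in sham members. Lyz1 had 1571 and 2493 CPM in te2 members and 2385 and 1670 CPM in sham members, but 37.0% of the 31-base words at its transcript ends also occur in Lyz2, so the split between both lysozymes is uncertain. H2-Aa, an MHC class II alpha chain, had 7165 and 7411 CPM in te2 members and 5226 and 5820 CPM in sham members. H2-Aa did not set the members apart from C1q macrophages, as shown for the 6 markers by library.

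**Figure D1:**
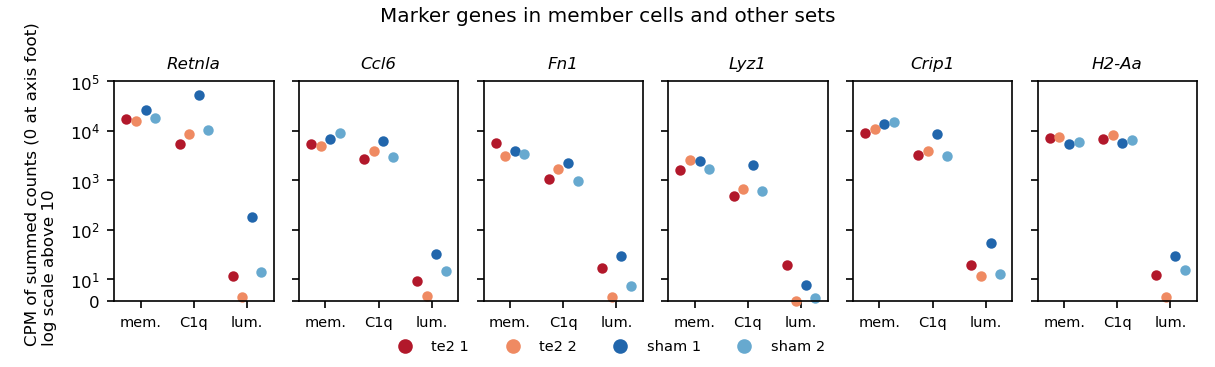
Level of the 6 marker genes in member cells (mem.), C1q macrophages (C1q) and luminal cells (lum.), as CPM of the counts summed over each set and library, on an axis that is logarithmic above 10; each point is 1 library. H2-Aa lies between 5226 and 7411 CPM in member cells and between 5551 and 7938 CPM in C1q macrophages, and Retnla peaks at 52312 CPM in the C1q macrophages of sham 1.

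The set used for comparison was the C1q macrophages, with at least 3 C1q UMIs, no limit on Retnla, Ccl6 and Fn1, and the other limits as for members. They numbered 260, with 77 and 74 in te2 and 61 and 48 in sham, at median depths of 1683 and 1940 UMIs in te2 and 973 and 849 UMIs in sham. The border between both sets ran through cells that carried the Retnla group of genes: 126 of the 260 C1q macrophages (48.5%, exact 95% interval 42.2% to 54.7%) also had 3 or more UMIs of Retnla, Ccl6 and Fn1. By library these were 42 of 77 and 37 of 74 in te2 and 32 of 61 and 15 of 48 in sham. In C1q macrophages Retnla stood at 5357 and 8427 CPM in te2 and 52312 and 10271 CPM in sham, so in sham 1 it was higher in C1q macrophages than in members. The macrophages with Spp1 or Gpnmb, 48 and 10 in te2 and 0 and 0 in sham, were kept apart from both sets.

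Marker lists placed the members among mononuclear phagocytes. All 12 pan-myeloid genes outside the gate were detected, among them Tyrobp and Fcer1g, adaptors of activating receptors, and Ptprc, the CD45 gene. The integrin Itgam had 496 and 539 CPM in te2 members and 552 and 539 CPM in sham members. The growth factor receptor Csf1r had 248 and 292 CPM in te2 members and 290 and 269 CPM in sham members. Lists for neutrophils, mast cells, eosinophils, T cells, NK cells and smooth muscle summed to 11 counts or fewer over all members, with S100a8, S100a9, Kit, Trac, Trbc2, Ncr1 and Myh11 at 0. The luminal list had 103 counts, 83 of them of Cd24a, the fibroblast list 46 and the endothelial list 10.

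Monocyte genes were present in part. Ccr2, the receptor by which monocytes leave the blood, had 401 counts over all members, Ifitm6 153 and F13a1 102, but Ly6c2 and Vcan, which mark classical monocytes, were at 0. Vcan had 9 counts in C1q macrophages, a bound of at least 1.26-fold lower in members (floor of 3 counts), so its 0 says little. Plac8 had 12 counts, all of these in te2 2. Of the non-classical monocyte list, Ace was at 0 and the list summed to 37 counts, against 678 counts for the classical list.

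Most defining dendritic cell genes were at or near 0. Flt3 was at 0, Clec9a had 1 count, Zbtb46 3 and Xcr1 7, and the migratory markers Ccr7 and Fscn1 and the plasmacytoid marker Siglech were at 0. Of the type 1 list 3 genes had 10 or more counts, Batf3 with 78, Naaa with 47 and Wdfy4 with 14. Batf3, a factor of type 1 dendritic cells, had 400 and 359 CPM in te2 members and 386 and 269 CPM in sham members. Genes shared by type 2 dendritic cells and monocyte-derived cells were present, with 41 counts of Mgl2 and 38 of Cd209a.

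Of the subtype lists, the one for small serous cavity macrophages had a count for each of its 6 genes that are not gate or marker genes. Of these, Ccr2 is also on the classical monocyte list and Cd209a, Irf4 and Itgax on the type 2 dendritic cell list. The summed list stood at 3238 and 3211 CPM in te2 members and 2785 and 3071 CPM in sham members. In C1q macrophages it stood at 936 and 994 CPM in te2 and 1546 and 925 CPM in sham, below the members in every library. Ccr2 gave most of the 637 member counts of this list. Other lists also stood higher in members in every library. The classical monocyte list had 2854 to 3555 CPM in members and 1495 to 2530 CPM in C1q macrophages. The Spp1 lipid-handling list had 3121 to 4302 CPM and 1850 to 2096 CPM. The list for large cavity macrophages had 11 counts over all members, with Gata6, Selp, Cxcl13, Garnl3 and Timd4 at 0. In C1q macrophages that list summed to 841 and 308 CPM in te2 and 1815 and 39.4 CPM in sham, so it was highest in the library with the most members, and its part in the results was not tested. The label, myeloid cells with Retnla, Ccl6 and Fn1, restates the gate and is a description, and no narrower cell type is given to them here.

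**Figure D2:**
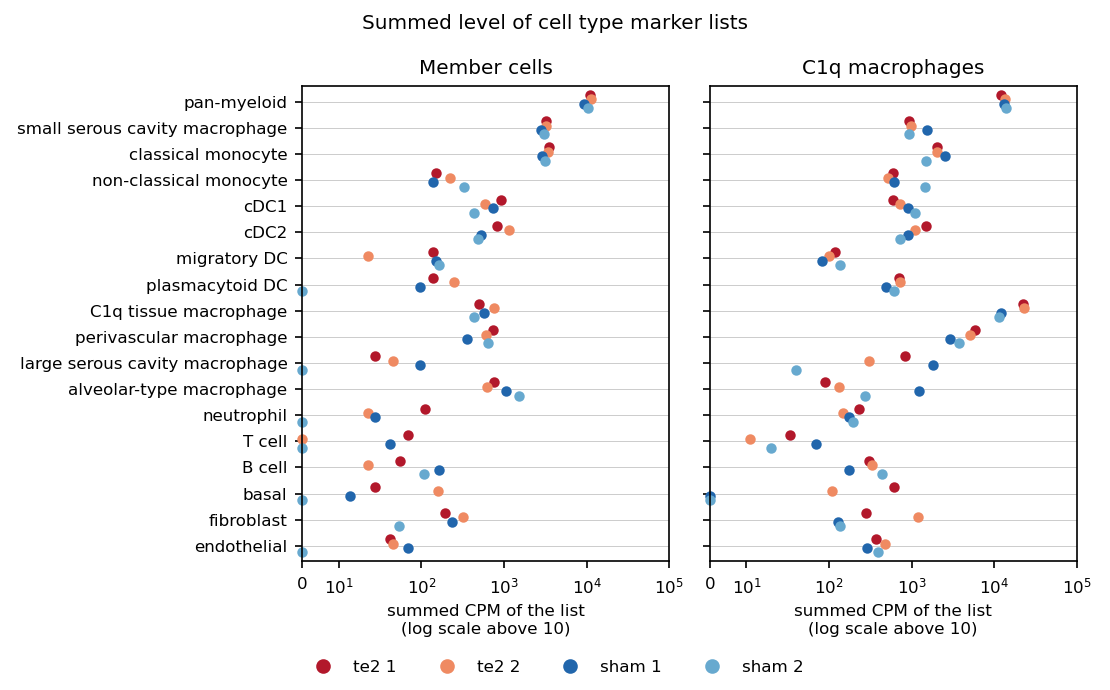
Summed CPM of fixed marker lists in member cells (left) and C1q macrophages (right), without gate and marker genes, on an axis that is logarithmic above 10; each point is 1 library. The small serous cavity list lies between 2785 and 3238 CPM in member cells and between 925 and 1546 CPM in C1q macrophages, and the C1q tissue macrophage list at 431 to 764 CPM in member cells and 11628 to 22859 CPM in C1q macrophages.

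A few members did not carry Retnla. There were 7 such cells, 2 and 2 in te2 and 2 and 1 in sham, and 5 of them had a UMI of Cd209a, a C-type lectin of monocyte-derived and type 2 dendritic cells, against 6 of the 73 members with Retnla. Over the summed counts Cd209a stood at 1129 CPM in members without Retnla and 89.7 CPM in members with it. Mgl2, another C-type lectin, stood at 1183 CPM without Retnla and 100.2 CPM with it, and H2-Aa at 10105 CPM without and 6061 CPM with it. Lyz1 and Cd226 had 0 counts in the cells without Retnla, against 2263 and 237 CPM in those with it, and the lipase gene Lpl had 53.8 CPM against 2194 CPM. Median depths were 2653 and 2237 UMIs. This split was chosen after the values were seen and has no test.

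Top2a and Mki67, genes of dividing cells, had 14 and 7 counts over the members of sham 1 and 0 in those of the other 3 libraries. The Top2a counts lay in 4 cells and those of Mki67 in 2. Other genes of the cell cycle list were counted in every library, among them H2az1, a histone variant gene, and Tubb5, a tubulin gene, with 222 and 94 counts over all members.

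Relative to the tissue, members were rare in both groups. They made up 0.861% (exact 95% interval 0.526% to 1.33%) and 0.521% (0.260% to 0.930%) of the kept cells in te2, against 2.50% (1.80% to 3.38%) and 0.397% (0.171% to 0.780%) in sham. The intervals cover counting error only. The te2 libraries lay between both sham libraries, and the means were 0.691% in te2 and 1.45% in sham (exact two-sided permutation test over 2 against 2 libraries, p = 1, smallest possible 0.33). Without sham replicate 1 the difference, te2 minus sham, was 0.29 percentage points, against −0.76 with all libraries. Thinning every cell to 1000 UMIs left 1.17% and 0.638% in te2 against 3.47% and 0.486% in sham.

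Of the cells in the 3 gated myeloid sets, members made up 13.8% and 11.6% in te2, against 40.2% and 14.3% in sham. Both te2 values were below both sham values, with te2 1 and sham 2 close together (exact two-sided permutation test, n = 2 each, p = 0.33, the smallest possible). The denominator includes the macrophages with Spp1 or Gpnmb, which were found in te2 libraries alone, so their number lowers the te2 shares by construction. Over members and C1q macrophages alone, a denominator added after the data were seen, members made up 20.6% and 12.9% in te2, against 40.2% and 14.3% in sham, so te2 1 stood above sham 2 and the groups overlapped.

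**Figure D3:**
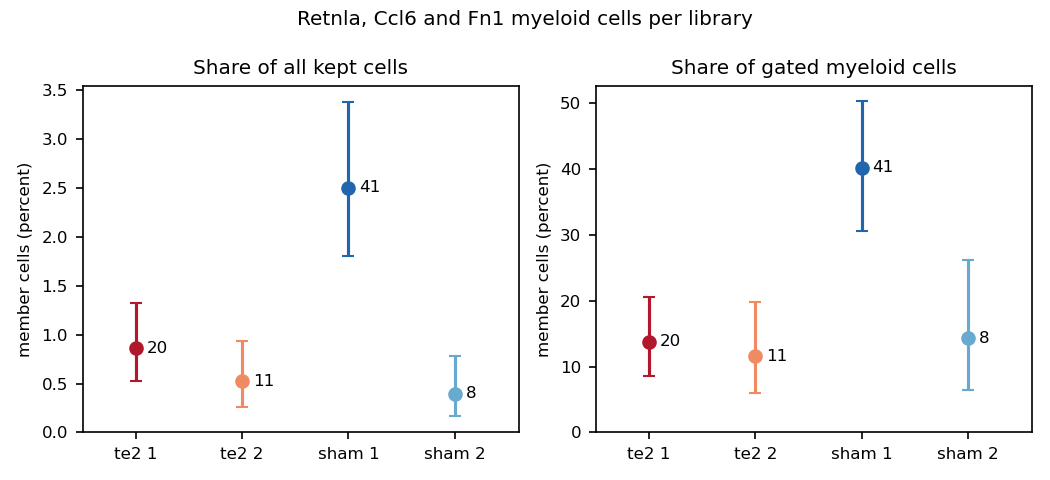
Member cells as percent of all kept cells (left) and of the 3 gated myeloid sets (right) in each library, with exact 95% binomial intervals; the number beside each point is the count of member cells. Sham 1 stands alone at 2.50% of kept cells, while the other libraries lie between 0.397% and 0.861%.

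Against C1q macrophages of the same libraries, the members had higher levels of Ccr2, Lpl, S100 and actin genes and glycolytic enzymes, and lower levels of tissue macrophage and lysosomal genes. Of 1625 genes tested, 406 passed (25.0%), 157 higher (9.66%) and 249 lower (15.3%) in members (edgeR's quasi-likelihood test with library as a block, Benjamini-Hochberg adjusted p at 0.05). Both sets were cut by C1q, and the members alone by the Retnla group of genes, so genes that vary along with these had to differ too. Genes at or near 0 in one set passed the filter on low counts through the other, and counts of such genes support nothing. For that reason several genes are also given against the 126 C1q macrophages with 3 or more UMIs of Retnla, Ccl6 and Fn1, a comparison added after the data were seen. There 218 of 1524 genes passed (14.3%), 60 higher (3.94%) and 158 lower (10.4%). Of the 406 genes, 352 were tested there and 198 passed in both, all with the same sign.

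Counts moved with depth and tool. With DESeq2 218 genes passed, with cells of at least 1000 UMIs 250, with sums thinned to the smallest total 87 of 366, and without te2 replicate 1 261. With totals alone in place of TMM factors 220 were higher and 216 lower, and the median of all tested genes was 0.11 against −0.01 (log2).

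Ccr2 was higher in members. It had 2150 and 1909 CPM in te2 members and 1710 and 1940 CPM in sham members, against 678 and 703 CPM in te2 and 1066 and 669 CPM in sham C1q macrophages. The groups of 4 did not overlap, and the log2 difference was 1.11 ± 0.18 (SE, edgeR adjusted p = 2.2e-06). A Ccr2 UMI was found in 85.0% of members and 34.2% of C1q macrophages (median depth 1338.5 UMIs) and in 0.651% of luminal cells. After thinning to 500 UMIs the counts were 40 of 80 members and 49 of 260 C1q macrophages. Against C1q macrophages with the Retnla group the Ccr2 difference was 0.56 (adjusted p = 0.0456).

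Of the small cavity list, the 4 genes high enough to test were Ccr2, Clec4b1, Cd226 and Cd209a. Ccr2, Clec4b1 and Cd226 were higher, beside 9.66% of all genes. Cd226 and Cd209a passed the filter on low counts through the members alone, so their calls support nothing. Clec4b1, a C-type lectin whose transcript ends share 26.2% of their words with Clec4a2, differed by 1.29 ± 0.25 (log2, edgeR adjusted p = 5.0e-05). Cd226 had 179 and 135 CPM in te2 members and 290 and 269 CPM in sham members, against 11.2 and 54.9 CPM in te2 and 93.7 and 39.4 CPM in sham C1q macrophages, without overlap. Its difference was 1.93 ± 0.47 (adjusted p = 0.0013), and 1.33 (adjusted p = 0.0525) against C1q macrophages with the Retnla group. Cd209a had 38 counts in members and 1 in C1q macrophages, a ratio of 90.7 (95% counting interval 15.3 to 3674), with 0 entered for sham 2, whose table gives no count of it. With DESeq2 its adjusted p was 0.0524. Cd209a was found in 11 of 80 members, and 21 of its 38 counts lay in the 7 members without Retnla.

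Of the classical monocyte list, 2 of 3 genes tested were higher and 1 lower, beside 9.66% and 15.3% of all genes. Ifitm6, an interferon-induced membrane protein gene, differed by 0.94 ± 0.26 (log2, adjusted p = 0.0055). That call rests on te2 replicate 1, without which the difference was 0.44 (adjusted p = 0.303), and in sham 1 it had 717 CPM in members, against 831 CPM in C1q macrophages. F13a1, the coagulation factor XIII A chain, was lower (−0.99 ± 0.21, adjusted p = 0.00025). Batf3 did not pass (0.69 ± 0.28, adjusted p = 0.0585), and neither did Naaa, an acid amidase gene of type 1 dendritic cells (0.61 ± 0.35, adjusted p = 0.223).

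Genes of metabolism and the secreted ribonuclease Ear2 gave mixed results. Lpl, which hydrolyses triglycerides at the cell surface, had 1846 and 1325 CPM in te2 members and 2454 and 2479 CPM in sham members, against 387 and 494 CPM in te2 and 574 and 492 CPM in sham C1q macrophages. The sets were far apart in every library (log2 difference 1.80 ± 0.18, edgeR adjusted p = 3.6e-11), and the difference was 1.28 (adjusted p = 5.9e-05) against C1q macrophages with the Retnla group. Ear2 differed by 1.39 ± 0.31 (adjusted p = 0.00042) over all C1q macrophages. It did not pass against those with the Retnla group (0.76, adjusted p = 0.204), with cells of at least 1000 UMIs (1.13) or with thinned sums (0.51), and it shares 47.7% of its words with Ear1. In C1q macrophages Ear2 had 61.6 and 126 CPM in te2 and 1230 and 256 CPM in sham, so the sham 1 set stood with the members.

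Among the 12 genes named as higher were an enzyme of pyrimidine breakdown and receptors of migrating leukocytes. All of the 12 but Id2 passed the filter on low counts through the members alone. Their calls support nothing, and their values are given as a description. Upb1, the beta-ureidopropionase of pyrimidine catabolism, had 220 and 180 CPM in te2 members and 82.7 and 216 CPM in sham members, against 16.8 and 16.5 CPM in te2 and 11.7 and 0 CPM in sham C1q macrophages (log2 3.36 ± 0.63, edgeR adjusted p = 3.9e-05). Ltb4r1, the leukotriene B4 receptor, had 220 and 269 CPM in te2 members and 152 and 216 CPM in sham members, against 39.2 and 22.0 CPM in te2 and 35.1 and 19.7 CPM in sham C1q macrophages (2.59 ± 0.50). Neither gene's sets overlapped. Id2, a repressor of basic helix-loop-helix factors, had 703 and 359 CPM in te2 members and 317 and 593 CPM in sham members, against 33.6 and 49.4 CPM in te2 and 187 and 177 CPM in sham C1q macrophages (2.23 ± 0.35).

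The remaining higher genes included proteases and adaptors at low counts, and these too passed the filter on low counts through the members alone. Napsa, an aspartic protease, differed by 2.73 ± 0.63, the metalloprotease Adam8 by 2.63 ± 0.63, and the guanine nucleotide exchange factors Net1 and Tiam1 by 2.49 ± 0.62 and 2.07 ± 0.61 (log2). Prelid2, a PRELI domain gene, differed by 1.90 ± 0.49. Leaving out a single library ended the calls of Napsa (te2 replicate 2, 2.01, adjusted p = 0.175) and Adam8 (sham replicate 1, 2.01, adjusted p = 0.161). It also ended those of Net1 (either te2 library, adjusted p = 0.119 and 0.0808), Hopx (te2 replicate 2, 0.081), Prelid2 (te2 replicate 1, 0.0728) and Tiam1 (each of the 4 libraries, 0.0880 to 0.173). Cd24a, a small surface glycoprotein gene, differed by 2.21 ± 0.33, and Hopx, a homeodomain cofactor, by 1.94 ± 0.55. Against C1q macrophages with the Retnla group Hopx did not pass (1.35, adjusted p = 0.0893) and Tiam1 was too low to test. Both are also genes of luminal cells, with Cd24a at 247 to 701 CPM in members and 132 to 209 CPM in luminal cells, and Hopx at 108 to 179 CPM in members and 70.5 to 121 CPM in luminal cells.

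**Figure D4:**
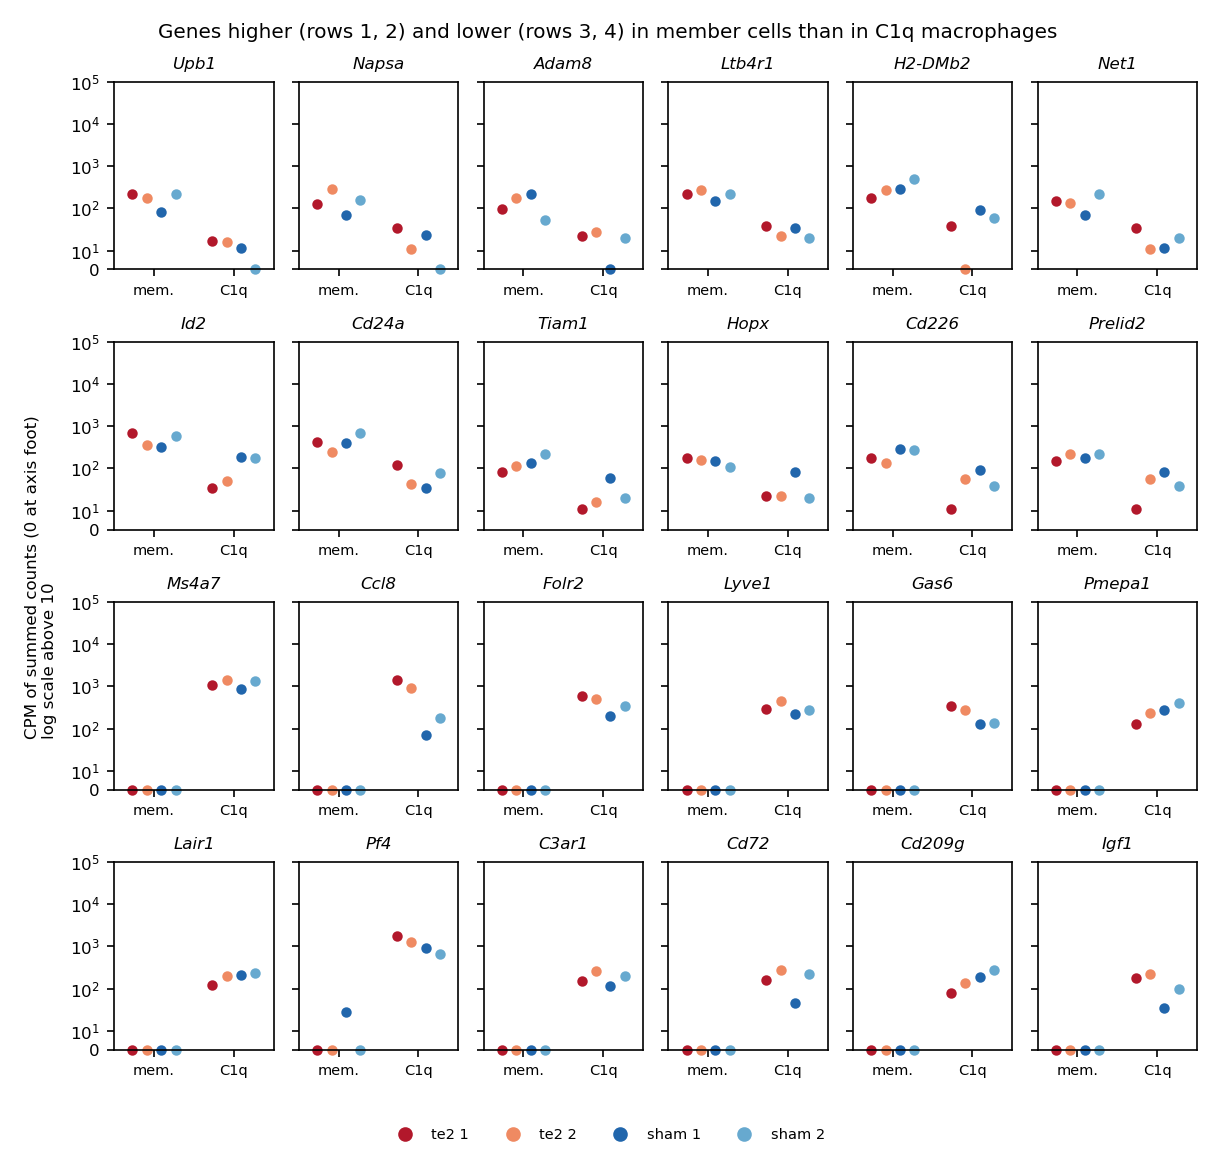
The 12 genes named as higher (upper 2 rows of panels) and the 12 named as lower (lower 2 rows) in member cells (mem.) than in C1q macrophages (C1q), as CPM of the counts summed over each set and library, on an axis that is logarithmic above 10; each point is 1 library. Of the 12 lower genes, 11 sit at 0 in all 4 member sets, and Pf4 has 27.6 CPM in sham 1 members.

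Several tissue macrophage genes were at or near 0 in members. Ms4a7, a tetraspan gene of resident macrophages, had 0 counts in members and 588 in C1q macrophages, at least 82.2-fold lower in members (floor of 3 counts over the 4 libraries). Ccl8, a chemokine, was at least 60.2-fold lower, the folate receptor gene Folr2 at least 31.9-fold and the hyaluronan receptor gene Lyve1 at least 23.2-fold. The growth arrest factor Gas6 was at least 17.7-fold lower and the growth factor Igf1 at least 11-fold. Pf4, platelet factor 4, had 2 counts in members and 645 in C1q macrophages, a ratio of 135 (95% counting interval 37.3 to 1119). Pmepa1, Lair1, C3ar1, Cd72 and Cd209g completed the 12, each at 0 counts and at least 9.50-fold to 15.2-fold lower.

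Of the C1q tissue macrophage list 4 genes, and of the perivascular list 1, had 10 or more counts over all members. The rest had under 10 there, so no count of calls is given for these lists. Apoe, the lipid carrier, had 234 and 359 CPM in te2 members and 221 and 216 CPM in sham members, against 15964 and 16629 CPM in te2 and 7436 and 5529 CPM in sham C1q macrophages (log2 −5.69 ± 0.25, edgeR adjusted p = 3.8e-24). An Apoe UMI was found in 14 of 80 members. Csf1r (−2.11 ± 0.22, adjusted p = 9.6e-11) and Adgre1, the F4/80 gene (−2.11 ± 0.44, adjusted p = 0.00023), were lower too.

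Lysosomal genes were lower as a group. Of 20 tested genes of the lysosome and phagocytosis list, 14 were lower and 1 higher, with a median of −0.97 (log2), beside a median of −0.0045 for all genes. Over all genes tested, 15.3% were lower and 9.66% higher. The proteases Ctsb (−2.79 ± 0.22), Ctsl (−2.75 ± 0.39) and Lgmn (−4.66 ± 0.44) were lower, each also against C1q macrophages with the Retnla group, and the gene that was higher was Psap, the precursor of saposins (0.61 ± 0.16). Of the lipid handling list 3 of 6 tested genes were lower, with Abca1, the cholesterol exporter, at −3.47 ± 0.52, and Lpl was the 1 higher.

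MHC class II genes went both ways. The chaperone chains that load peptides were higher, H2-DMa by 0.63 ± 0.20 (adjusted p = 0.0159), H2-DMb1 by 0.59 ± 0.21 (adjusted p = 0.0319) and H2-DMb2 by 2.51 ± 0.48 (log2, adjusted p = 5.3e-05; 25.4% of its words occur in other transcripts). H2-Eb1, a beta chain, was lower (−0.66 ± 0.17, adjusted p = 0.0032), as were the proteases Ctss and Lgmn that cut the invariant chain. H2-Ab1 did not pass (−0.03 ± 0.17, adjusted p = 0.936). In all, 3 of 9 tested class II genes were higher and 3 lower, beside 9.66% and 15.3% of all genes. H2-DMb2, counted among the 3 higher, passed the filter on low counts through the members alone, so its call supports nothing. Of 8 class I genes 3 were lower, B2m, H2-K1 and Tapbp, with a list median of −0.52 (log2).

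Cytoskeletal and calcium-binding genes were mostly higher. Of 19 tested S100, annexin and actin genes, 14 were higher and 1 lower, with a median of 0.64 (log2), beside 9.66% and 15.3% of all genes. Tmsb10, an actin-binding thymosin, had 937 and 1819 CPM in te2 members and 1848 and 2533 CPM in sham members, against 398 and 467 CPM in te2 and 574 and 453 CPM in sham C1q macrophages (1.58 ± 0.19, edgeR adjusted p = 3.1e-09). S100a6 had 6132 and 5322 CPM in te2 members and 6136 and 9214 CPM in sham members, against 1294 and 2697 CPM in te2 and 4157 and 1259 CPM in sham C1q macrophages (1.39 ± 0.22). Both also passed against C1q macrophages with the Retnla group, at 1.19 and 0.77. Lgals1, a galectin, was the gene that was lower (−1.28 ± 0.28).

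Glycolysis genes were mostly higher, while few respiration and ribosomal genes passed. Of 12 tested glycolysis and hypoxia genes 8 were higher and 0 lower, among them Eno1 (0.91 ± 0.24), Ldha (0.88 ± 0.26) and Gapdh (0.65 ± 0.20), with a median of 0.75 (log2). Of 33 tested oxidative phosphorylation genes 5 were higher and 0 lower, with a median of 0.29, and Ndufa6, a complex I subunit, at 1.09 ± 0.20. Of 17 ribosomal protein genes 2 were higher, and of all genes 9.66% were. With totals alone 9 respiration and 8 ribosomal genes were higher. No list median named for this comparison changed sign under totals alone or RLE factors.

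Chemokine genes were uneven in members. Ccl9, a close relative of Ccl6, had 146 counts in members and did not differ past the threshold (0.33 ± 0.21, adjusted p = 0.289). Ccl8 and Ccl12 had 0 counts in members and Cxcl16 and Ccl4 1 each, so these passed the filter on low counts through the C1q macrophages alone. Ccl24, with 27 counts in members and 175 in C1q macrophages, was lower. Il1b was at 0 in members and had 6 counts in C1q macrophages. Of the receptor list Csf2ra (0.96 ± 0.23) and Csf2rb (1.37 ± 0.51), which form the receptor of the growth factor GM-CSF, were higher with Ccr2. Csf1r, the fractalkine receptor Cx3cr1 and the receptors Tgfbr1 and Tgfbr2 for TGF-beta were lower. Tgfbr1, with 3 counts in members and 130 in C1q macrophages, and Cx3cr1 passed the filter on low counts through the C1q macrophages alone. The calls of these 2 genes support nothing.

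Most tested genes of alternative activation were lower in members, while over all genes tested 15.3% were lower and 9.66% higher. Outside Retnla itself, 1 of 6 tested genes of that list was higher (Ear2) and 4 were lower, among them the mannose receptor Mrc1 (−1.18 ± 0.21), Mgl2 (−1.72 ± 0.28) and Clec10a (−2.38 ± 0.34, log2). Mgl2 shares 15.1% of its words with Clec10a. Mrc1 had 620 and 539 CPM in te2 members and 234 and 647 CPM in sham members, against 1306 and 1192 CPM in te2 and 574 and 610 CPM in sham C1q macrophages, so the sham 2 sets were level. Arg1 had 1 count and Alox15 1 count in members. Stat6 and Il4ra, the factor and the receptor chain of the interleukin 4 response, had 15 and 13 counts, too few to test.

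Other lists were sparse. Of 6 interferon response genes tested 3 were lower, Ly6e (−3.80 ± 0.38), Bst2 and Ifi204, and of the steroid hormone list both of the 2 genes tested were lower (1 with totals alone), Nr3c1, the glucocorticoid receptor (−1.14 ± 0.43, adjusted p = 0.0429), and Nrip1, a nuclear receptor corepressor. Of 7 immediate early and stress genes tested 0 passed. Over all genes tested, 15.3% were lower and 9.66% higher.

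Between treatments few genes passed in members. Of 985 genes tested in members, 1 passed (0.102%; edgeR's quasi-likelihood test, Benjamini-Hochberg adjusted p at 0.05), and it was lower in te2. At an unadjusted p under 0.05 there were 139 genes, and DESeq2 called 2. The count was 23 with gates applied to thinned cells, 12 without called doublets, and 0 without te2 replicate 1 to 4 without te2 replicate 2. The smallest set, sham 2, held 8 cells and 18558 UMIs. In C1q macrophages 15 of 2576 genes passed (0.582%), 9 higher (0.349%) and 6 lower (0.233%) in te2.

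The gene that passed was Spink5, a protease inhibitor secreted by the luminal epithelium, and it is named outside the rule for named genes. It had 138 and 67.4 CPM in te2 members, against 634 and 647 CPM in sham members (log2 −2.58 ± 0.43, adjusted p = 0.0036), from 10 and 3 counts in te2 and 46 and 12 in sham. In all kept cells Spink5 stood at 10315 and 6835 CPM in te2 and 6093 and 4161 CPM in sham, far above the members. The 14 luminal secreted products summed to 2384 and 4828 CPM in te2 members, against 18711 and 19668 CPM in sham members, and to 100563 and 141235 CPM in te2 and 272791 and 248404 CPM in sham over all kept cells. That sum includes Sbp and Spink1, which made up most of it in members. The gate held both together under 10% of a member's UMIs, so the level of the sum in members was capped by the gate. The part of luminal RNA in the Spink5 difference was not tested. The call was lost without sham replicate 1 (−2.48, adjusted p = 0.174) and without te2 replicate 1 (−3.23, adjusted p = 0.176).

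Genes closest to the threshold on the higher side did not pass and are given as values. Mgl2 had 248 and 359 CPM in te2 members, against 82.7 and 53.9 CPM in sham members (log2 1.83 ± 0.55, edgeR adjusted p = 0.138). It was found in 4 of 20 and 8 of 11 members in te2 and 4 of 41 and 1 of 8 members in sham, with 10 UMIs in a single te2 1 cell, and 22 of its 41 counts lay in the 7 members without Retnla, 4 of them te2 and 3 sham. Cebpb, a factor of myeloid differentiation, had 331 and 427 CPM in te2 members, against 110 and 162 CPM in sham members (1.51 ± 0.47, adjusted p = 0.152). Ftl1, the ferritin light chain, had 6697 and 7680 CPM in te2 members, against 3488 and 3826 CPM in sham members (0.93 ± 0.24, adjusted p = 0.092), and 76.3% of its words occur in a pseudogene. The groups were apart for each of these. Atp6v0c, a proton pump subunit (1.52 ± 0.39), Ranbp1, a nuclear transport factor (1.78 ± 0.46), and Arhgdib (1.07 ± 0.32), had adjusted p of 0.090 to 0.138. Atp6v0c and Ranbp1 passed without called doublets, and 29.6% and 21.1% of their words occur in another annotated transcript.

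On the lower side Lilra6, a leukocyte immunoglobulin-like receptor gene that shares 36.9% of its words with Pira2, had 68.9 and 44.9 CPM in te2 members, against 317 and 216 CPM in sham members (−2.32 ± 0.62, adjusted p = 0.097). Ptafr, the receptor of platelet activating factor, had 551 and 337 CPM in te2 members, against 965 and 862 CPM in sham members (−1.08 ± 0.32, adjusted p = 0.138). Srp19, a signal recognition particle protein, had 68.9 and 89.8 CPM in te2 members, against 331 and 323 CPM in sham members (−2.13 ± 0.51, adjusted p = 0.073). Neither these genes nor Grip2 (−0.93 ± 0.26), Ddx5 (−0.94 ± 0.28) and Cox7c (−1.03 ± 0.31) passed. Ddx5 and Cox7c share 29.9% and 23.2% of their words with another annotated transcript. Grip2 stood at a like level outside the members, at 12849 and 10764 CPM in te2 and 20069 and 15515 CPM in sham over all kept cells.

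**Figure D5:**
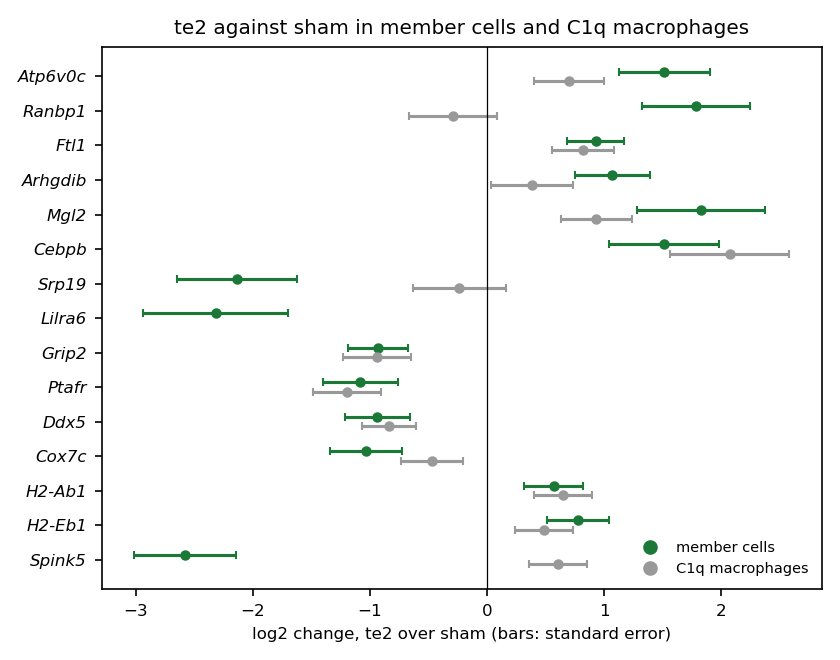
Fitted log2 change, te2 over sham, with its standard error in member cells (green) and C1q macrophages (grey) for the 12 genes nearest the threshold in members, 2 MHC class II chains and Spink5. Spink5 is the gene that passed in members, at −2.58, and it stands at 0.60 in C1q macrophages; Lilra6 was too low to fit in C1q macrophages.

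The MHC class II chains stood higher in te2 members, though no single gene passed. H2-Aa, H2-Ab1 and H2-Eb1 summed to 16810 and 17561 CPM in te2 members, against 11762 and 10939 CPM in sham members, with the groups apart. The fitted log2 changes were 0.36 ± 0.23 for H2-Aa, 0.57 ± 0.25 for H2-Ab1 and 0.78 ± 0.26 for H2-Eb1 (edgeR adjusted p = 0.540, 0.295 and 0.168). In C1q macrophages the sum was 17029 and 18865 CPM in te2, against 11804 and 14009 CPM in sham. Of 9 tested class II genes 7 were above 0 in te2 members, with a median of 0.36 beside −0.01 for all 985 genes, and 0 passed.

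Apart from the luminal secreted products, which include Spink5, none of the other lists had a gene that passed. Among them were oxidative phosphorylation (33 tested, median log2 change −0.19), glycolysis and hypoxia (12, −0.29) and lysosome and phagocytosis (12, 0.38). Of the steroid receptor list no gene was high enough to test in members. Gene by gene, Ccr2 (0.12 ± 0.26), Lpl (−0.67 ± 0.27), Crip1 (−0.57 ± 0.23), Clec4b1 (0.27 ± 0.32) and Ear2 (−0.90 ± 0.29, log2) had adjusted p of 0.168 to 0.919. An adjusted p above the threshold does not show that te2 left these genes alone.

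Whether te2 acted on members otherwise than on C1q macrophages was asked with a term for cell set by treatment. Of 1627 genes tested 1 passed (0.0615%; edgeR's quasi-likelihood test), Spink5 again, with 69 genes at an unadjusted p under 0.05 and 1 called by DESeq2. Spink5 had 1804 and 1708 CPM in te2 C1q macrophages, against 902 and 1358 CPM in sham C1q macrophages, so its direction there was opposite to that in members, and the difference of the log2 changes was −3.28 ± 0.48 (adjusted p = 0.00062). With C1q macrophages that carried 3 or more UMIs of other cell types' genes left out (no member did), the difference was −1.11 (adjusted p = 0.999). Ear2 was lower in te2 in C1q macrophages (−3.12, adjusted p = 0.0165), a set in which 0 genes passed without sham replicate 1 (398 at an unadjusted p under 0.05, edgeR), and the difference of its changes between both cell sets did not pass (2.24 ± 0.59, adjusted p = 0.287).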

How the data were processed

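Ventral prostate cells of 4 animals were sequenced, 2 of the te2 group and 2 of the sham group, each animal 1 library. Values in the 4 deposited files are whole, unscaled UMI counts, 1 for each gene in each cell. The submitters' processing notes name kallisto 0.46.1, bustools 0.39.4, R 4.3.2, Seurat 5.0.1 and build GRCm39 without their roles. Where a table lacked a gene listed elsewhere, 0 was used. How reads shared by near-identical genes were counted is not given in the sources used here. As a guide, 31-base words of the last 500 bases of each transcript were compared among all annotated transcripts of GENCODE's earlier mouse build.

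Cells were gated on raw counts as described. The members and lists were chosen with earlier results of these data known. Counts were summed per cell set and library and tested with edgeR 4.0.16 in R 4.3.3 (quasi-likelihood, TMM factors, filterByExpr, two-sided, Benjamini-Hochberg over all genes tested). Genes of the gate were fitted and never called, nor were the marker genes between cell sets. Against C1q macrophages the library was a block. Alternatives were DESeq2 1.42.0, other scalings and gates, thinned counts, cells called doublets by scrublet in scanpy 1.11.5 left out, and each library left out in turn. Doublets were otherwise kept. The tests were also tried on simulated counts with the same dispersion for every gene, and that outcome is not given here. Shares were compared by exact permutation tests in scipy 1.17.1.

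Named genes were up to 12 in each direction by size of change among those past the threshold, at a mean log2 CPM of at least 6. Mitochondrial, ribosomal, Gm, Rik and pseudogene symbols were left out. Between treatments the groups' CPM could not overlap, and the level in members had to reach that of all kept cells. Against C1q macrophages the change had the same sign in all 4 libraries. With fewer than 6 in a direction, the genes of smallest p were added up to 6 and given as values. Genes of the fixed lists could be named too. Some genes of the fixed lists are not reported here.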

Additional observations from a re-analysis of the deposited data

Results flagged for a closer look

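Spink5, a secreted product of the luminal epithelium, differed in its te2 response between member cells and C1q macrophages, by −3.28 ± 0.48 on the log2 scale (edgeR's quasi-likelihood test of the interaction, adjusted p = 0.00062). It had 138 and 67.4 CPM in te2 members and 634 and 647 CPM in sham members, and 1804 and 1708 CPM in te2 C1q macrophages and 902 and 1358 CPM in sham C1q macrophages. The call was lost in 4 of 18 alternatives. With C1q macrophages that carried 3 or more UMIs of epithelial, stromal, T cell or endothelial genes left out (no member did), the difference was −1.11 (adjusted p = 0.999). The part of luminal RNA in this result was not tested.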

How the results depend on the processing

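The number of genes called was the value that moved most. Between te2 and sham in members it was 1, and it was 2 with DESeq2, with no filter on low counts and with at least 1000 UMIs per cell, 23 with gates on thinned cells, 3 with thinned sums, 12 without called doublets, and 0 to 4 when 1 library was left out. In C1q macrophages it was 15, and 31 with totals alone, 4 with DESeq2, 0 with no filter (722 genes at an unadjusted p under 0.05), 3 with at least 1000 UMIs and with thinned sums, 38 with stricter gates, 35 without called doublets, 46 without cells holding other cell types' genes, 28 and 36 in C1q macrophages with and without the Retnla group of genes, and 0 to 64 when 1 library was left out. Between members and C1q macrophages it was 406, and 218 with DESeq2, 250 with at least 1000 UMIs, 87 with thinned sums, 218 against C1q macrophages with the Retnla group, and 261 to 430 when 1 library was left out. For the difference of responses it was 1, and 4 with totals alone, 2 with no filter, 6 with at most 10% mitochondrial counts, 0 with gates on thinned cells (65 genes at an unadjusted p under 0.05) and with members that had a Retnla UMI (61 such genes), 5 against C1q macrophages without the Retnla group, and 1 to 7 when 1 library was left out. The cause was not tested.

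The share of members, te2 minus sham, reversed to 0.29 percentage points without sham replicate 1, and ranged from −1.81 to 0.29 when 1 library was left out. Deviations of same-numbered libraries had a correlation of −0.00078 in members and −0.065 in C1q macrophages. With 2 animals per group this cannot show whether same-numbered animals were paired. With a replicate block 10 genes were called in members and 66 in C1q macrophages, against 1 and 15 without it. Of single genes, 20 of 33 named between members and C1q macrophages, 3 of 13 between treatments and 0 of 1 for the difference of responses kept their side of the threshold under every alternative run, and none changed sign. Precision is limited by 8 to 41 members per library, 2 animals per group and the deeper te2 libraries.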
